A study of Mus musculus with 6 samples.

Results

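Periostin (Postn), its paralog transforming growth factor beta-induced protein (Tgfbi), the thrombospondins Thbs1 to Thbs4, Sparc and its relative Sparcl1 (hevin) encode matricellular proteins, secreted proteins that sit in the extracellular matrix and act on cell receptors more than as scaffold. These 8 genes were taken by symbol from the 17607 genes of a normalised count table of mouse auditory nerve, all 8 were present, and all 8 passed the filter on low counts. They were chosen by name around Postn, which had been selected on its higher normalised counts in the old than in the young libraries. The old against young values of the 8 are therefore a description. Where the number of them past a threshold is printed below, it tests nothing. The study sequenced RNA from auditory nerves microdissected from the cochleas of mice of CBA/CaJ, an inbred line that hears well into later life. There were 3 old mice of 2.5 years and 3 young mice of 2 months, both cochleas of 1 mouse made 1 library, and the labels name no treatment or engineered allele for either group. The labels used here give neither the sex of the mice nor a strand setting for read counting. Values below are normalised read counts, that is, reads divided by the authors' size factor of each library.

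Matricellular proteins are made in quantity during development and after injury and are restrained in many resting adult tissues. Periostin and the product of Tgfbi both carry repeated fasciclin domains, bind collagen and fibronectin, and signal through integrins, and transforming growth factor beta (TGF-beta) can induce both genes. Thrombospondins bind calcium and many matrix proteins. Thrombospondin 1 can activate latent TGF-beta, and astrocyte thrombospondins promote synapse formation through the calcium channel subunit alpha2delta-1. SPARC binds collagen and guides its assembly, and hevin, abundant in astrocytes and vessels of the brain, acts on synapses, an action that SPARC opposes.

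The sequences upstream of Postn and Tgfbi are shown because Postn stood higher in old nerves while its paralog Tgfbi did not. Both are the 250 bases before the transcription start that RefSeq gives in the GRCm38.p6 build, on the strand of the gene. RefSeq lists 2 starts for Postn, and the one used equals the deposited gene start. Its sequence is chr3:54360857-54361106 on the plus strand. That of Tgfbi is chr13:56609336-56609585 on the plus strand, and the deposited start of Tgfbi is 17 bases further down. Capitals mark matches, on either strand, to 5 motifs, and no matches overlap in these 2 sequences. The TATA box was searched as TATAAA. The core of sites for SMAD proteins, which carry the TGF-beta signal, was searched as CAGAC. The motif of the AP-1 factors was TGANTCA. The GC box, bound by Sp1, was GGGCGG. The E-box, bound by basic helix-loop-helix factors, was CANNTG.
Postn: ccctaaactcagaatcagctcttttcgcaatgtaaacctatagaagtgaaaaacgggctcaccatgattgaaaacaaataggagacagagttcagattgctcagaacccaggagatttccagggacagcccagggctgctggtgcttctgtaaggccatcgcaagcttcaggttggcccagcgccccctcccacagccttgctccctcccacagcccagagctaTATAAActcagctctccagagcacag
Tgfbi: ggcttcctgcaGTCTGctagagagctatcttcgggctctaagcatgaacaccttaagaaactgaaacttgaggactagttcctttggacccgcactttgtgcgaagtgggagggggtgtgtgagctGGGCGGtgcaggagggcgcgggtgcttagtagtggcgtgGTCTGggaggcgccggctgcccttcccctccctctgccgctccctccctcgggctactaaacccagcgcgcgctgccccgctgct
The Postn sequence held the TATA box 26 bases before the start and none of the other 4 motifs. The Tgfbi sequence held no TATA box, the SMAD core at 239 and 85 bases before the start, where the opposite strand reads it, and the GC box at 124 bases. Among 32851 RefSeq promoters of the same length, the TATA box was present in 12.4%, the SMAD core in 42.2%, the GC box in 32.7%, the AP-1 motif in 6.75% and the E-box in 66.2%. Postn had 4 CpG dinucleotides and Tgfbi had 15, against a median of 6 over all promoters. RefSeq promoters were at hand for 6 of the 8 genes. Among the other 4 of these only Thbs2 held a match to the TATA box letters, at 126 bases before its start. There the opposite strand reads it, whereas in Postn the strand of the gene does.

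Postn was the gene of the set that differed with age. In the mm10 build it lies on the plus strand of chromosome 3 from 54361107 to 54391041. It stood at 4012, 2531 and 4466 normalised counts in old 1, 2 and 3, against 620, 934 and 875 in young 1, 2 and 3. Every old library was above every young one, with the lowest old library 2.71 times the highest young one. The means were 3670 ± 1012 in old nerves and 810.0 ± 167 in young nerves (SD, n = 3 each), a ratio of 4.53 and a log2 difference of 2.16 ± 0.24 (SE, on the log2(value + 1) scale). Of the 15882 genes tested, 95 had a larger positive log2 difference. By level per kilobase of transcript, Postn took places 2044, 3540 and 1874 among 16318 genes with a known length in the old libraries, against places 9366, 7927 and 8168 in the young ones. The table counts each gene once, so the 5 protein-coding transcripts that GENCODE lists for Postn, which differ by splicing, cannot be told apart.

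**Figure D1:**
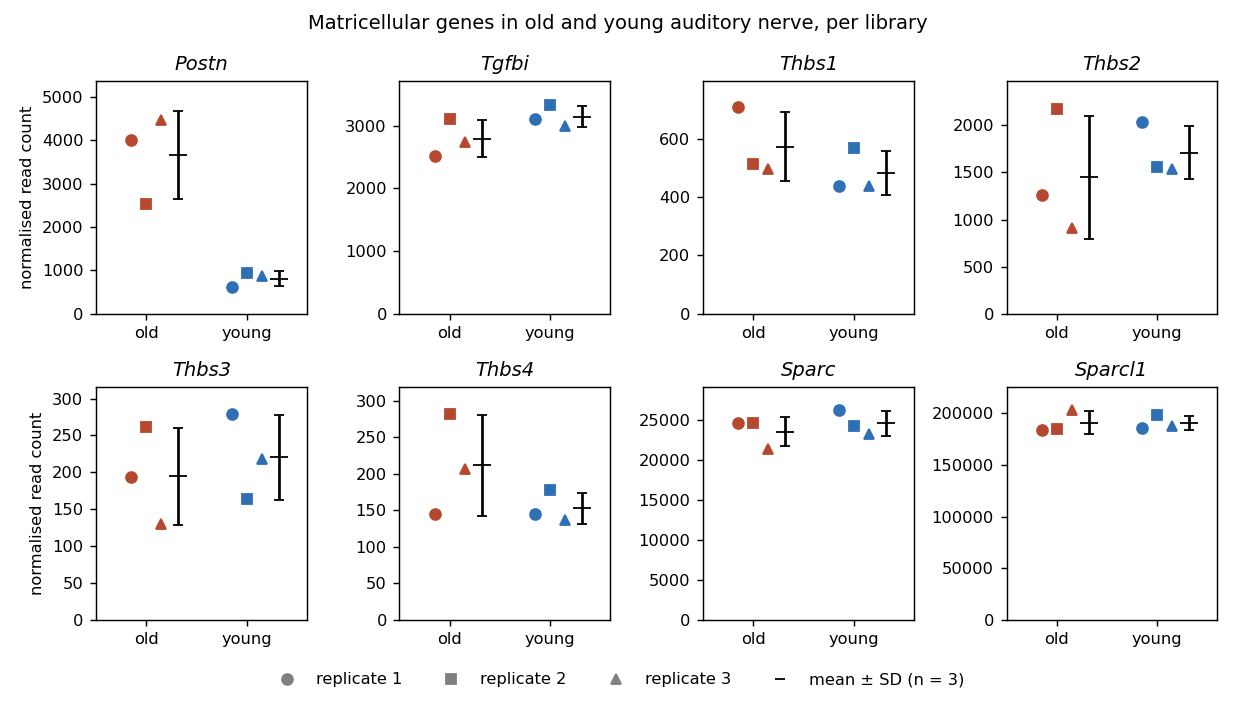
Normalised read counts (y axis, from 0) of the 8 genes in each library, with old left of young; symbols give the replicate and bars the mean ± SD of 3 libraries. The old and young libraries separate in the Postn panel, where all 3 old libraries lie at 2531 or above and all 3 young ones at 934 or below, and overlap in the other 7.

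Tgfbi, which encodes the closest relative of periostin, had 2521, 3107 and 2743 normalised counts in old 1, 2 and 3, against 3100, 3330 and 2996 in young 1, 2 and 3. The groups overlapped, since old 2 was above young 1 and young 3, and the log2 difference was -0.18 ± 0.09. It lies on chromosome 13 from 56609603 to 56639339. The balance of the pair therefore differed between the ages. On the scale of counts per kilobase of transcript, the ratio of Postn to Tgfbi was 1.35, 0.690 and 1.38 in old 1, 2 and 3, against 0.169, 0.237 and 0.247 in young 1, 2 and 3. By these lengths Tgfbi was the more abundant of the pair in old 2 and Postn in old 1 and old 3. With the union of all exons as length the ratio was 0.690, 0.353 and 0.706 in old 1, 2 and 3, against 0.0866, 0.122 and 0.127 in young 1, 2 and 3, and Tgfbi was the more abundant in every library.

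The SPARC genes were the most abundant of the 8 and differed little between the ages. Sparcl1 (chromosome 5, 104079109 to 104114088, minus strand) had 183344, 185195 and 203527 normalised counts in old 1, 2 and 3, against 185935, 198403 and 187496 in young 1, 2 and 3. The groups overlapped, and the means, 190689 ± 11157 in old nerves and 190611 ± 6793 in young nerves, differed by 0.0406%. This gene alone took 0.501% to 0.542% of the recovered reads of old libraries and 0.484% to 0.505% of those of young libraries, and by level per kilobase it stood in place 7 of 16318 in every old library and in place 5 to 7 in the young ones. Sparc (chromosome 11, 55394159 to 55420080, minus strand) had 24605, 24564 and 21379 normalised counts in old 1, 2 and 3, against 26193, 24285 and 23170 in young 1, 2 and 3. Its groups overlapped too, with a log2 difference of -0.06 ± 0.09. GENCODE places an antisense gene, Gm26703, across part of Sparcl1, and its reads could be mixed in. Per kilobase, Sparcl1 exceeded Sparc by a ratio of 6.21, 6.28 and 7.94 in the old libraries, against 5.92, 6.81 and 6.75 in the young ones.

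The 4 thrombospondins were far less abundant, and their old and young libraries overlapped in each. Thbs1 and Thbs2 encode thrombospondins that assemble as trimers and carry the type 1 repeats known for blocking vessel growth. Thbs1 (chromosome 2, 118111876 to 118127133) had 709, 512 and 496 normalised counts in old 1, 2 and 3, against 439, 569 and 436 in young 1, 2 and 3 (log2 difference 0.24 ± 0.17). Only old 1 lay above all young libraries. A GENCODE lincRNA on the opposite strand, Gm29233, lies within Thbs1, so reads of the pair could be mixed. Thbs2 (chromosome 17, 14665500 to 14694262, minus strand) had 1260, 2178 and 911 in old 1, 2 and 3, against 2037.5, 1557 and 1538 in young 1, 2 and 3 (log2 difference -0.32 ± 0.30). Old 2 was above every young library while old 1 and old 3 were below every one, so the old libraries enclosed the young ones. Without old 2 the log2 difference of Thbs2 was -0.66 and without old 3 it was -0.03, so its size rested on which old library was left out.

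Thbs3 and Thbs4 encode thrombospondins that assemble as pentamers, as does the related cartilage protein COMP. Thbs3 (chromosome 3, 89215180 to 89226841) had 193, 261 and 130 normalised counts in old 1, 2 and 3, against 279.2, 164 and 218 in young 1, 2 and 3 (log2 difference -0.20 ± 0.30, 0.06 without old 3). Its range was wide within both ages and the groups overlapped. GENCODE extends the gene Mtx1, on the opposite strand, across Thbs3, and with no strand setting stated, reads of the pair could be mixed. Thbs4 (chromosome 13, 92751586 to 92794818, minus strand) had 145, 282 and 207 normalised counts in old 1, 2 and 3, against 145, 177 and 137 in young 1, 2 and 3 (log2 difference 0.42 ± 0.25). Old 2 and old 3 were above all young libraries and old 1 was not. Each of these values rests on few reads, 124 to 297 per library for both genes.

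Thbs2 was the main thrombospondin at both ages. On the per-kilobase scale it made up 48.5%, 58.9% and 44.8% of the summed level of the 4 genes in old 1, 2 and 3, against 62.4%, 56.4% and 58.4% in young 1, 2 and 3. Thbs1 made up 27.5%, 13.98% and 24.6% in the old libraries, against 13.6%, 20.8% and 16.7% in the young ones. The share of Thbs4 was 10.3%, 14.1% and 18.8% in the old libraries, against 8.18%, 11.8% and 9.56% in the young ones. The summed level averaged 471 counts per kilobase in old nerves and 489 in young nerves, with ranges of 345 to 627 in old and 447 to 554 in young libraries.

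**Figure D2:**
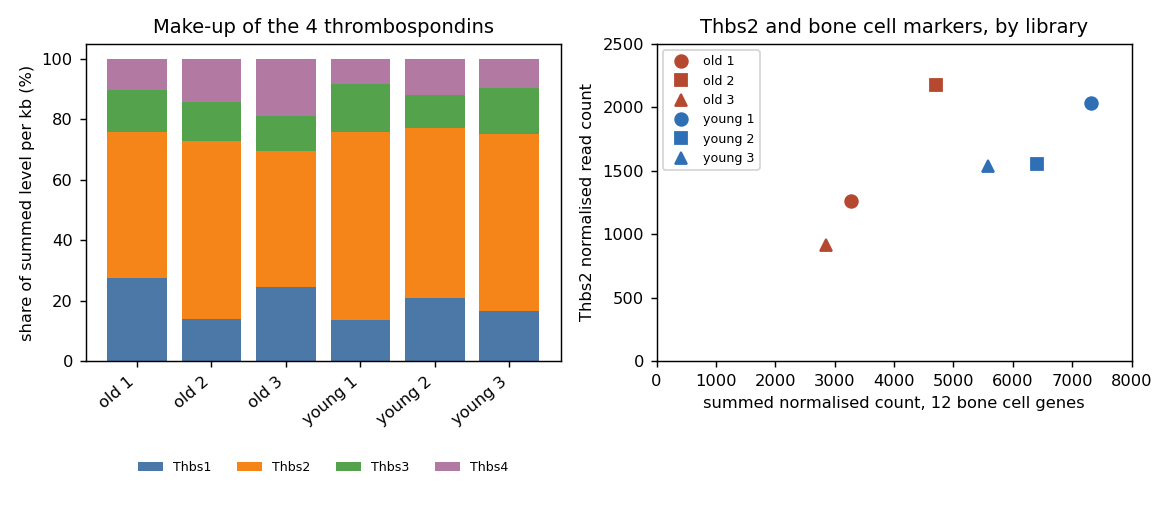
Left, the share (%) of each thrombospondin gene in their summed level per kilobase, by library, with old left of young; Thbs2 is the largest block in all 6 libraries. Right, Thbs2 normalised counts (y axis) against the summed normalised counts of 12 osteoblast and osteocyte genes (x axis), 1 point per library. Old 2 and young 1 are the highest of their age on both axes. Across the ages, old 2 lies above every young library on the Thbs2 axis and below every one on the other.

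Markers of bone and connective tissue cells were highest in the same library of each age as Thbs2 and Thbs3. Thbs2 and Thbs3 were highest in old 2 among old libraries and in young 1 among young libraries. The summed normalised count of 12 osteoblast and osteocyte genes was 3268, 4705 and 2851 in old 1, 2 and 3, against 7319, 6408 and 5589 in young 1, 2 and 3, and was likewise highest in old 2 and young 1. This bone sum was lowest in old 3 and young 3, as was Thbs2, whereas Thbs3 was lowest in old 3 and young 2. Thbs2 in young 3 (1538) was barely below young 2 (1557), beside a counting error of 2.09% to 3.26% per library. The match was one of rank within each age. In old 2 the bone sum was below every young library, while Thbs2 was above every young one. The sum of 12 fibroblast genes was 69601, 85422 and 51807 in the old libraries, against 81221, 74758 and 74902 in the young ones. No gene of either list was at 0 in all libraries, although the osteocalcin gene Bglap was at 0 in old 3. The match was not particular to bone and connective tissue. The sum of 12 macrophage genes was 21457, 22517 and 15037 in old 1, 2 and 3, against 6978, 5415 and 5851 in young 1, 2 and 3. It too was highest in old 2 and young 1. The part of any of these cells in the values of the thrombospondins was not tested. In bulk tissue fewer cells of a type and less RNA per cell cannot be told apart.

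Marker lists of other cells were counted beside Postn and are read against the 34.6% of all genes tested that passed the threshold. All 12 macrophage genes tested were higher in old nerves (limma, adjusted p under the threshold of 0.05), with summed counts of 15037 to 22517 in old libraries and 5415 to 6978 in young ones. Of 12 osteoblast and osteocyte genes 8 were lower and none higher, and of 12 fibroblast genes 4 were lower (Col1a1, Col1a2, Col3a1 and Clec3b) and none higher. Of 12 genes of cochlear epithelium and lateral wall 4 were higher (Epyc, Slc26a4, Kcnq1 and Epcam) and none lower. In each of these 4 every old library was above every young one, with ratios of means of 2.17 (Slc26a4) to 2.62 (Kcnq1). Of all genes tested, 25.5% had every old library above every young one. Among the 8 cochlear genes that did not pass, Kcne1 separated in this direction too and Tecta in the other. Tecta stood at 102 ± 14.1 in old nerves, against 180 ± 63.4 in young nerves (log2 difference -0.78 ± 0.26, adjusted p = 0.0542). The median log2 difference of the 12 was 0.85. Their sums were 293521 to 492480 in old libraries and 269121 to 413828 in young ones. Most of each sum came from 1 gene, Coch, whose groups overlapped. Coch had 256561 to 435344 in old libraries and 249097 to 386695 in young ones. The shares of fibroblast and cochlear genes that passed are near the share of all genes, which counts both directions. By direction, 4 of 12 cochlear genes were higher, beside 15.9% of all genes. Likewise 4 of 12 fibroblast genes were lower, beside 18.7% of all genes. No gene of these lists was at 0 in all libraries. Their part in the rise of Postn was not tested. Schwann cell genes, the glia of the nerve, summed to 500572 to 545044 in old and 492323 to 556340 in young libraries, and neuron genes to 308656 to 441897 in old and 484913 to 487634 in young libraries, so the labelled tissue showed in every library.

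Of the 8 genes, 1 passed the threshold (Postn), while 34.6% of all 15882 genes tested did, 15.9% as higher and 18.7% as lower in old nerves. The groups did not overlap in 1 of 8 genes, against 51.8% of all genes tested (25.5% with old higher and 26.3% with old lower). DESeq2 on recovered reads put 39.1% of all genes past the threshold. Since this same comparison led to the choice of the genes, nothing is read from these counts. The median log2 difference was -0.03 over the 8 and -0.06 over the 7 without Postn, beside a median that rounds to zero over all genes tested. The count of all genes past it, 5493, was 3565 without young 1, 2614 without young 2 and 3100 without young 3. With upper-quartile scaling 59.5% of those past it were higher in old nerves, against 45.9% here. Recovered reads came to 34587979 to 38835751 in the old libraries and 35213213 to 40841478 in the young ones.

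The order of the genes by level per kilobase differed at the place of Postn, and Thbs3 and Thbs4 changed places. In old nerves it ran Sparcl1 (69115 ± 4044 counts per kilobase), Sparc (10224 ± 805), Postn (1145 ± 316), Tgfbi (1028 ± 109), Thbs2 (246 ± 111), Thbs1 (97.9 ± 20.3), Thbs4 (66.0 ± 21.4) and Thbs3 (61.0 ± 20.6). In young nerves it ran Sparcl1 (69087 ± 2462), Sparc (10674 ± 665), Tgfbi (1158 ± 63.0), Thbs2 (290.0 ± 48.0), Postn (253 ± 52.1), Thbs1 (82.3 ± 13.0), Thbs3 (69.1 ± 18.1) and Thbs4 (47.8 ± 6.67). Neighbours whose libraries overlapped in old nerves were Postn and Tgfbi, Thbs1 and Thbs4, and Thbs4 and Thbs3. In young nerves they were Thbs2 and Postn, Thbs1 and Thbs3, and Thbs3 and Thbs4. Lengths are those of the longest protein-coding transcript in GENCODE. With the union of all exons as length, Postn took the fourth place in old nerves and Tgfbi the third, and in young nerves Thbs4 took the seventh and Thbs3 the eighth.

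**Figure D3:**
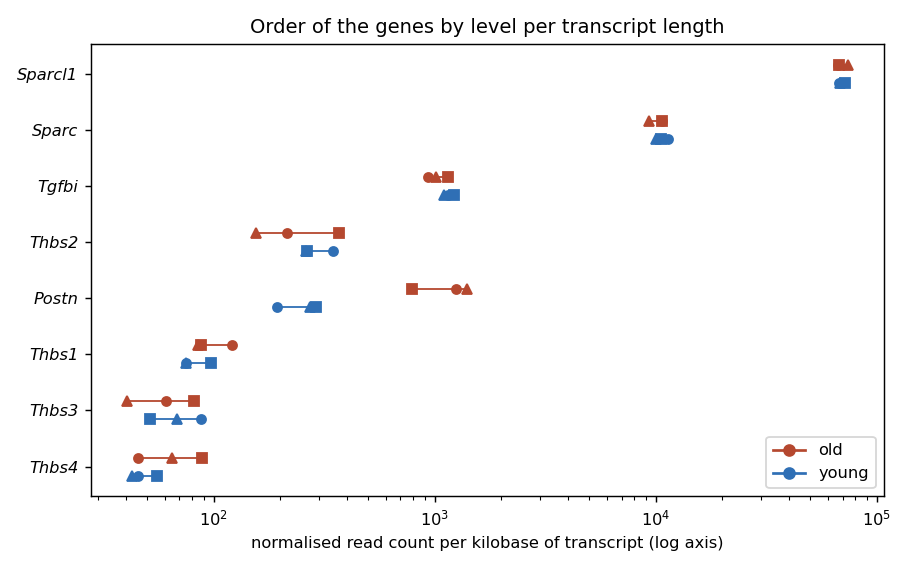
Normalised read count per kilobase of transcript (x axis, log scale) of each gene in old (upper row) and young (lower row) libraries; symbols are replicates 1 to 3 as circle, square and triangle, and lines span the range. Sparcl1 is highest at both ages (69115 in old and 69087 in young nerves), and Thbs3 and Thbs4 are lowest. The old libraries of Postn lie on either side of those of Tgfbi, with old 2 below them and old 1 and old 3 above.

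The replicates of the thrombospondins and of Postn spread more than the median gene of like abundance. The coefficient of variation of Thbs2 was 45.1% among old libraries and 16.5% among young ones, beside medians of 8.57% and 5.28% over the 5531 tested genes whose mean was within 2-fold of its own. For Postn it was 27.6% in old and 20.6% in young nerves, beside medians of 8.38% and 4.98%. Sparcl1 was steadier, at 5.85% in old and 3.56% in young nerves, beside medians of 14.5% and 8.90% over 8 genes.

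The 5 genes whose profile over the 6 libraries was most like that of Postn also dipped in old 2. They were picked on this profile, so the features they share with Postn follow from the choice. Likeness was the root mean square difference between log2(value + 1) profiles centred on their means, over the 7936 more abundant genes (mean of at least 926, the median of all tested). They were Gpx3, an extracellular glutathione peroxidase (difference 0.094), Scnn1a, a subunit of the epithelial sodium channel (0.154), the metallothionein Mt2 (0.186), the dipeptidase Cndp2 (0.194) and Ttr, the thyroid hormone carrier transthyretin (0.211). Gpx3 had 13023, 8565 and 15531 normalised counts in old 1, 2 and 3, against 2048, 3489 and 3409 in young 1, 2 and 3. Scnn1a had 1739, 897 and 1976 in the old libraries, against 217, 422 and 324 in the young ones. In both, as in Postn, old 2 was the lowest old library and young 1 the lowest young one, a likeness built into their choice. For the other 7 matricellular genes the difference from Postn was 1.005 (Thbs1) to 1.42 (Thbs2). This measure includes the age difference on which Postn was selected, so it too is a description.

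**Figure D4:**
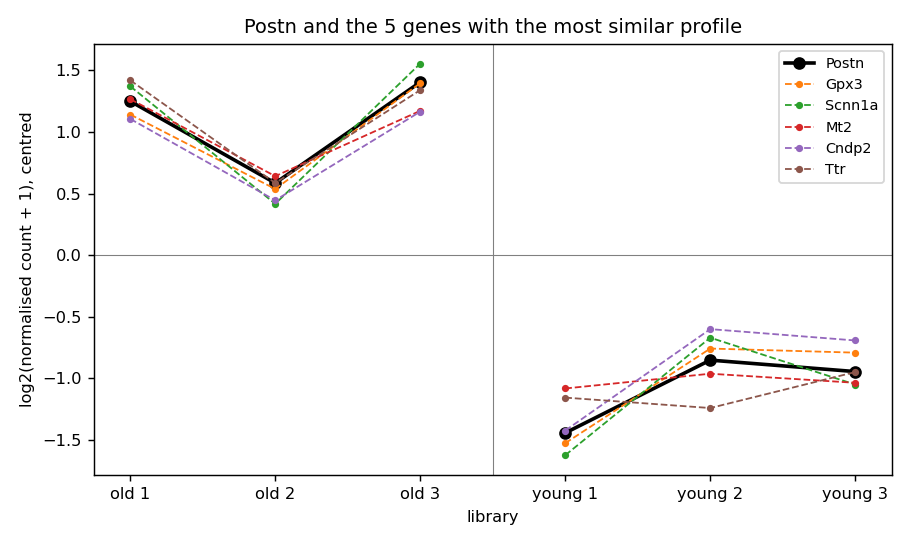
Centred log2(normalised count + 1) (y axis) of Postn (black) and of the 5 genes nearest to it in each library (x axis), old left of young. All 6 genes are above their mean in the old libraries, least so in old 2, and below it in the young ones.

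Genes around the 8 were taken as lists, and each list's count stands beside the 34.6% of all genes that passed in limma's fit with Benjamini-Hochberg adjustment over all genes. Of 9 further relatives (Comp, Smoc1, Smoc2, Spock1 to Spock3, Fstl1 and the stabilins, of which stabilin-1 takes up SPARC) 1 was lower and none higher, with a median log2 difference of -0.20. The one that fell was Spock2, a SPARC-domain proteoglycan of the nervous system, with 12465, 18164 and 22028 normalised counts in old 1, 2 and 3, against 42916, 37671 and 37315 in young 1, 2 and 3 (log2 difference -1.20 ± 0.20, adjusted p = 0.00719). All old libraries were below all young ones. Its adjusted p was 0.0507 with both young 1 and old 2 left out, the highest of 17 alternatives, whose lowest was 7.86e-08. Of 12 neuron marker genes 3 were lower too, and their part in this was not tested. Its relative Spock3 (-0.07 ± 0.17, adjusted p = 0.765) and the follistatin-like gene Fstl1 (-0.20 ± 0.12, adjusted p = 0.217) did not pass.

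Other matricellular genes went both ways. Of 14 tested 2 were higher and 4 lower in old nerves, with a median log2 difference of -0.08. Beside them, 15.9% of all genes tested were higher and 18.7% lower. Fbln5, an elastic fibre protein, rose to 2008 ± 413 in old nerves, against 1195 ± 113 in young nerves (0.73 ± 0.16, adjusted p = 0.0137). Ctgf, a TGF-beta-responsive member of the CCN family, had 7192, 7823 and 3882 in old 1, 2 and 3, against 2541, 3456 and 3291 in young 1, 2 and 3 (0.97 ± 0.26, adjusted p = 0.0282), and missed the threshold in 7 of 17 alternatives, with an adjusted p between 0.000267 and 0.159. These included leaving out old 1 (0.0865), old 2 (0.0729), young 1 (0.0807), young 2 (0.0634) or young 3 (0.0671). Tnr, the neural tenascin, fell to 161 ± 30.1 in old nerves, against 298 ± 49.4 in young nerves (-0.89 ± 0.19, adjusted p = 0.0136). Wisp1, another CCN gene, fell to 237 ± 98.4 in old nerves, against 591 ± 213 in young nerves (-1.35 ± 0.35, adjusted p = 0.0240), and missed the threshold without young 1 (0.0632), without young 2 (0.0566) or without old 1 (0.0631), in a range of 0.000851 to 0.0632 over 17 alternatives. Tnr missed it in 3 of 17 (range 0.000445 to 0.0931), among them the fit with length and GC trends removed (-0.47, adjusted p = 0.0931). Spp1 (osteopontin), a matrix phosphoprotein and the most abundant gene of the list, stood at 113768 ± 7308 in old nerves and 107872 ± 1400 in young nerves (0.07 ± 0.13, adjusted p = 0.684), and Cyr61 did not pass either (0.44 ± 0.28, adjusted p = 0.249). The list had 2 genes past the threshold without young 1, young 2 or old 1, and 3 without young 3.

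Receptors and their partners also went both ways, 4 higher and 5 lower of 24 tested, with a median of 0.08. These counts are near the shares of all genes tested, 15.9% higher and 18.7% lower. With length and GC trends removed 9 were higher and 2 lower. In that fit 1756 of all 14995 genes were higher and 1978 lower. Itgb2 (1.78 ± 0.19, adjusted p = 0.00416) and Itgam (1.20 ± 0.20, adjusted p = 0.00732), which encode the chains of the leukocyte integrin Mac-1, rose. Itgb2 stood at 574 ± 108 in old nerves and 165 ± 28.2 in young nerves, and Itgam at 720.0 ± 76.5 in old nerves and 320.0 ± 94.5 in young nerves. Macrophage genes rose with them (12 of 12), and their part was not tested. Itga6, a laminin receptor chain, fell (-0.47 ± 0.07, adjusted p = 0.00604). Lrp1, which clears thrombospondins and transmits their signal with calreticulin, fell to 17978 ± 1183 in old nerves, against 30478 ± 871 in young nerves (-0.76 ± 0.08, adjusted p = 0.00439), but stood at -0.04 once trends with transcript length and GC were taken out (adjusted p = 0.815, in a range of 4.06e-19 to 0.815). Calr, which encodes calreticulin (0.26 ± 0.14, adjusted p = 0.181), and Itgb1 (0.10 ± 0.11, adjusted p = 0.517) did not pass, although Itgb1 did without old 3 (0.22, adjusted p = 0.0394, in a range of 0.0394 to 0.943).

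The best-known receptors of periostin and the thrombospondins were picked out after their values were seen. Itgav, which encodes the alpha-v integrin chain, had 5700, 5462 and 4989 normalised counts in old 1, 2 and 3, against 5218, 5934 and 5590 in young 1, 2 and 3 (-0.05 ± 0.08, adjusted p = 0.636). Its groups overlapped. Of its beta partners, Itgb5 did not pass (0.13 ± 0.08, adjusted p = 0.250; 0.0311 with length and GC trends removed, in a range of 0.0311 to 0.850) and Itgb3 fell, with 109, 117 and 109 in the old libraries, against 171, 197 and 143 in the young ones (-0.59 ± 0.17, adjusted p = 0.0318). Itgb3 missed the threshold in 8 of 17 alternatives (range 0.0143 to 0.169), including without old 1 (0.0778), old 2 (0.0596), old 3 (0.0565), young 1 (0.0825) or young 2 (0.117). Cacna2d1, which encodes the thrombospondin receptor alpha2delta-1, rose, and stood at 2362, 1721 and 2117 normalised counts in old 1, 2 and 3, against 1306, 1484 and 1173 in young 1, 2 and 3 (0.64 ± 0.14, adjusted p = 0.0132). The thrombospondin receptors Cd47 (0.05 ± 0.08, adjusted p = 0.627) and Cd36 (0.57 ± 0.43, adjusted p = 0.328) did not pass, although Cd36 did without old 3 (1.05, adjusted p = 0.0310, in a range of 0.0310 to 0.630).

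Collagens and other matrix partners that passed were mostly lower in old nerves. Of 27 tested 9 were lower and 1 was higher (Lox, the collagen cross-linking lysyl oxidase), with a median of -0.44. Of all genes tested 18.7% were lower and 15.9% higher. Lox missed the threshold without old 1 (0.0509, in a range of 0.000422 to 0.0627 over 17 alternatives). Of the osteoblast list 8 of 12 genes were lower beside them, and the part of these cells was not tested. Of the 4 fibroblast genes that were lower, 3 (Col1a1, Col1a2 and Col3a1) are also in the matrix list. Hspg2 (perlecan) fell to 4223 ± 184 in old nerves, against 8768 ± 324 in young nerves (-1.05 ± 0.06, adjusted p = 0.00231), and Col4a1 and Col4a2, the chains of basement membrane collagen IV, fell by 0.96 ± 0.08 (adjusted p = 0.00399) and 0.74 ± 0.07 (adjusted p = 0.00399) on the log2 scale. Col5a2 fell too (-1.02 ± 0.10, adjusted p = 0.00399). With length and GC trends removed 5 genes of the list passed, and Hspg2 (-0.22, adjusted p = 0.0988) and Col4a2 (-0.17, adjusted p = 0.235) did not. Fewer of all genes passed in that fit as well, 3734 of 14995. Dcn (decorin) and Fn1 (fibronectin), a binding partner of periostin, did not pass (0.27 ± 0.25, adjusted p = 0.430, and -1.04 ± 0.35, adjusted p = 0.0567). Without old 2, in which Fn1 stood at 12707, against 4702 and 7147 in old 1 and old 3, Fn1 passed (-1.41, adjusted p = 0.0180, in a range of 0.0180 to 0.217), as did 17 of the 27 genes. Dcn passed without old 3 (0.54, adjusted p = 0.0439, in a range of 0.0439 to 0.987), and 6 of the 27 genes passed without old 1.

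Genes of TGF-beta and type 2 cytokine signalling, the known inducers of periostin, were 3 higher and 3 lower of 21 tested, with a median of -0.06. The shares of all genes tested were 15.9% higher and 18.7% lower. With length and GC trends removed 6 were higher and 1 lower, beside 1756 higher and 1978 lower of all 14995 genes in that fit. Il4ra, the receptor chain shared by interleukins 4 and 13, rose to 1082 ± 157 in old nerves, against 511 ± 92.6 in young nerves (1.09 ± 0.16, adjusted p = 0.00575). Ltbp4, a binding protein of latent TGF-beta, fell (-0.67 ± 0.13, adjusted p = 0.0109; with length and GC trends removed -0.08, adjusted p = 0.739, in a range of 0.000165 to 0.739). Bmp2 fell as well (-0.84 ± 0.18, adjusted p = 0.0125; 0.0523 without young 2, in a range of 0.000726 to 0.0523). The receptors Tgfbr2 (-0.30 ± 0.10, adjusted p = 0.0564) and Tgfbr3 (0.07 ± 0.13, adjusted p = 0.729) did not pass. Tgfbr2 did with DESeq2 (-0.29, adjusted p = 0.0313, in a range of 0.0313 to 0.871), and without young 2 the list had 3 genes past the threshold.

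**Figure D5:**
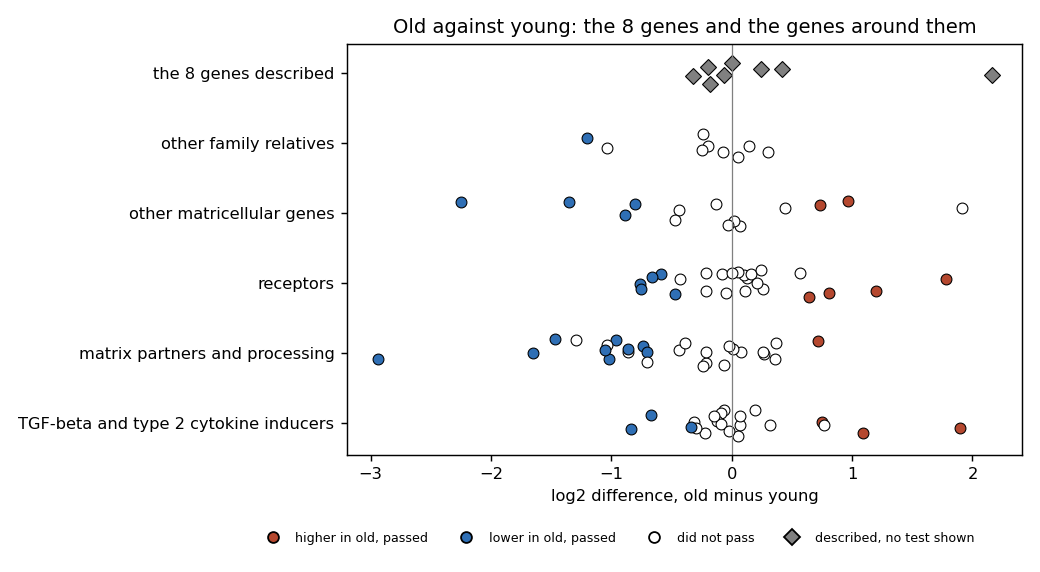
Log2 difference, old minus young (x axis), of the 8 genes (diamonds, no test shown) and of each tested gene in 5 lists (circles), filled where limma's adjusted p was under 0.05. Postn lies at 2.16, apart from the other 7 of its row, and the median of the matrix partners is -0.44.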

How the data were processed

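RNA was measured in 6 libraries, 3 per age. TopHat2, Partek and DESeq2 are named, with build mm10, in the submitters' processing notes. Their versions and settings, and the annotation, are not named in the sources used. The deposited sample columns are a signal, gene counts that the authors divided by 1 size factor per library, as the values show: dividing by the value of 1 read (0.9402 to 1.1012) gave whole reads within 0.1 for 99.931% to 99.971% of values above 0. Not used here are the p-value of the authors' own comparison and its signed fold score, per the file headers. Start positions count from 1, and ends are the deposited stop less 1.

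Normalised values of the 15882 genes that edgeR's filterByExpr (4.0.16, minimum count 10, minimum total 15 on recovered reads) kept of 17607 were tested with limma (3.58.1, trended variances) on log2(value + 1). P-values were two-sided and adjusted over all of them (Benjamini-Hochberg), with a threshold of 0.05. The added 1 understates changes of low genes. With 3 mice a group, an exact permutation test of 1 gene cannot go below p = 0.1. Alternatives were other pseudocounts (0.5 and 5), filters and scalings, edgeR and DESeq2 (1.42.0) on recovered reads, the replicate number as a block, trends in transcript length and GC removed (mgcv 1.9.3, GENCODE release M21, lengths for 94.4% of tested genes), and each library left out. The fit without young 1 and old 2 was added after seeing the data.

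The 8 genes and all lists were chosen with earlier results of these data known. Named of each list were up to 4 genes past the threshold with the smallest adjusted p and the 2 most abundant that did not pass; others are said to be chosen after their values were seen. One gene that this rule names is not reported here. Promoters are from RefSeq (GRCm38.p6).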

Additional observations from a re-analysis of the deposited data

How the results depend on the processing

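The log2 difference of Postn lay between 1.98 (without young 1) and 2.41 (without old 2) over 17 alternatives. Of the 8 genes 1 to 2 were past the threshold with 1 library left out, Thbs2 being the other without old 2. Since the same comparison chose the 8 genes, these values describe them and test nothing. With 1 library left out in turn, the count of all genes was 2614 to 6108 (5493 with all 6), that of other matricellular genes 2 to 6 (6), that of matrix partners 6 to 17 (10) and that of TGF-beta and inducer genes 3 to 7 (6). Without both young 1 and old 2, whose deviations from their group means correlated across genes (0.396), 1761 genes, 16 matrix partners, 5 receptors (9 with all 6) and 0 further relatives passed (1 with all 6; limma put 1 of 9 under 0.05 before adjustment). Upper-quartile scaling gave 2 further relatives, and 59.5% of all calls were then rises, against 45.9% here. With length and GC trends removed 5 matrix partners passed, and the balance of higher to lower was 9 to 2 for receptors and 6 to 1 for TGF-beta and inducer genes. Of all 14995 genes in that fit 3734 passed, 1756 as higher and 1978 as lower.

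Samples with the same replicate number did not deviate together (correlations across genes of -0.291, -0.412 and -0.05), and no library correlated best with its own number. With 3 libraries a group these correlations cannot decide whether the number marks a pairing or a shared batch. With the replicate block 2711 genes, 2 other matricellular genes and 6 matrix partners passed. The cause of these shifts was not tested. For the named genes beside the 8, no call changed its direction. Thbs3 and Thbs4 had 124 to 297 reads a library, a counting error of 5.80% to 8.98%, below their coefficients of variation among replicates (up to 33.7%).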
